A study of Drosophila melanogaster with 2 samples.

Results

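Xrp1 is a basic leucine zipper (bZIP) transcription factor of Drosophila that also carries an AT-hook, a short motif that contacts the minor groove of A/T-rich DNA. It pairs with another bZIP protein, Irbp18, and acts in DNA damage responses, in the response to proteotoxic and nutrient stress, and in cell competition, in which it drives the loss of cells with too few ribosomal protein gene copies. The 221 Xrp1-eGFP peaks described here are the ones whose summit lay in an annotated exon and more than 500 bp from every transcription start site (TSS). They were 221 of the 7534 peaks on the 6 chromosome arms in the conservative list, the peaks kept from the comparison of both replicates, or 2.93% (95% Wilson interval 2.58 to 3.34).

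The study used ChIP-seq, the sequencing of DNA that is precipitated together with a bound protein, on whole embryos of Drosophila melanogaster aged 8 to 24 hours by the samples' descriptions. The separate age entry gives a different figure and was set aside. The embryos were transgenic for Xrp1-eGFP, a fusion with a green fluorescent protein made from an inserted construct. Chromatin sheared to 200 to 800 bp was precipitated through the GFP tag by an antibody. There was 1 group of 2 biological replicates, so every comparison below is between peaks, stretches of sequence or the replicates. Whole embryos mix all cell types, and nothing in a peak list says in which cells a site was bound. The files hold peaks and no reads, so depth is unknown and intervals cover counting error only. Signal is the authors' own peak value and ranks peaks only within a list.

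The exonic peaks fell into 4 kinds that differed in number, strength and sequence. Untranslated regions (UTRs) of protein-coding genes held 122 summits, 82 of them in 3' UTRs and 40 in 5' UTRs, and coding sequence held 28. The remaining 71 lay in exons of non-coding RNA genes, 65 of them long non-coding RNAs (lncRNAs) and 6 antisense RNAs. The 29 bases centred on a summit are printed for a pair of strong peaks of each kind, as these show how unlike the bound exons were in base composition. All are dm6 reference sequence on the plus strand, and capitals mark runs of 4 or more A or T bases.
baz, 5' UTR, chrX:17178685-17178713: gTTAATTTAgTTATgTTTTTgTATATAca
cic, 5' UTR, chr3R:20253336-20253364: ttgctttgcttactccTTTTccccgattc
Cals, 3' UTR, chr4:1113341-1113369: TTTTATTgTTAAAAAgTTTATgttcTATT
APC7, 3' UTR, chrX:6599479-6599507: cTTTATcatccattgtcTAAAAgtgaatg
Pde1c, coding sequence, chr2L:11816571-11816599: ccatctgccggctccgcagctggctcact
Ubr1, coding sequence, chrX:16967635-16967663: ggcgccacaacgacgtcctccatgtcgta
lncRNA:CR46035, lncRNA exon, chr3R:17704405-17704433: gatcaagtcactcatcAAAAgactgaact
lncRNA:CR43823, lncRNA exon, chr2L:3588523-3588551: aagttacATATTATAcTTAATATTATTTT
The A/T content of these stretches was 89.7% at lncRNA:CR43823, 86.2% at Cals and 82.8% at baz. Both coding stretches held no such run, with an A/T content of 31.0% at Pde1c and 37.9% at Ubr1. The peaks printed were the strongest of their kind after 1 arm, whose sequence is not printed here, was set aside, and they were chosen after the data had been seen. That arm holds otp, Fbl6 and CAP, which were stronger than some of those shown. The Ubr1 stretch is centred on the midpoint of a peak of the most common width, which may not be its true summit. The stretches of baz, lncRNA:CR46035 and lncRNA:CR43823 are also centred on the midpoints of their peaks, which have other widths.

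For their length, exons of non-coding RNAs held Xrp1-eGFP summits at a density whose interval included that of introns, and coding sequence held very few. Per Mb of sequence more than 500 bp from a TSS, non-coding RNA exons held 64.6 summits (exact Poisson interval 50.5 to 81.5). Introns held 56.7 per Mb (54.7 to 58.8) and intergenic sequence 37.0 (35.1 to 39.0). The 5' UTRs held 38.2 per Mb (27.3 to 52.1), an interval that includes the intergenic value and lies below the intronic one. The 3' UTRs held 12.1 per Mb (9.63 to 15.04), and coding sequence held 1.598 (1.06 to 2.31). Exonic sequence this far from a TSS made up 19.8% of the sequence on the 6 arms, most of it coding, and held 8.36 summits per Mb in all.

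**Figure D1:**
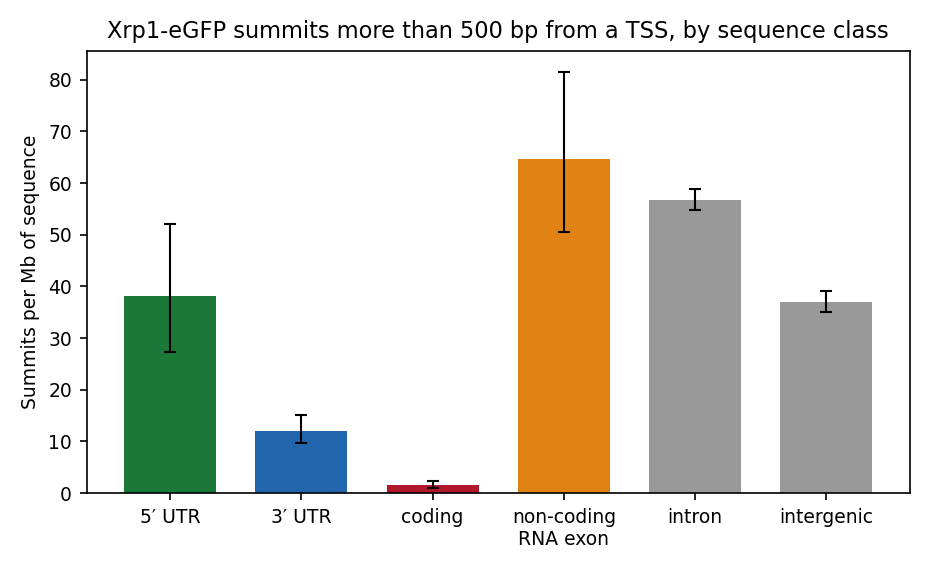
Summits per Mb of sequence more than 500 bp from a TSS (y axis) for each class of sequence (x axis), with exact Poisson 95% intervals as error bars. Non-coding RNA exons, at 64.6 per Mb, stand beside introns at 56.7, and coding sequence stands at 1.598.

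By count, the balance of the kinds was turned round among peaks that had failed the replicate comparison. Of the 78984 ranked peaks with a global irreproducible discovery rate (IDR) above 0.05, 18728 or 23.7% were exonic by the same rule. Coding sequence held 12318 of these and non-coding RNA exons 760, against 28 and 71 in the conservative list. The A/T content of the 18728 within 50 bp of the summit had a median of 48.5%, whereas that of the 221 conservative members was 65.3%. These pooled medians come from unlike mixes of kinds. By kind, failed and conservative peaks had medians of 45.5% and 45.5% in coding sequence and 61.4% and 66.3% in 3' UTRs. The medians were 52.5% and 58.9% in 5' UTRs, and 56.4% and 70.3% in non-coding RNA exons.

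The exonic peaks had a lower median signal than the rest, and the strongest of them ranked 39th and 86th in the whole list. Their signal ran from 2.05 to 1428 with a median of 105 (quartiles 74.8 and 167), beside 123 for the other peaks away from promoters and 125 for promoter peaks. The median was 135 in non-coding RNA exons, 118 in 5' UTRs, 97.1 in 3' UTRs and 73.0 in coding sequence. The strongest 1883 peaks, 25% of the list, held 20 of the 71 summits in non-coding RNA exons, 13 of the 82 in 3' UTRs, 8 of the 40 in 5' UTRs and 2 of the 28 in coding sequence.

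**Figure D2:**
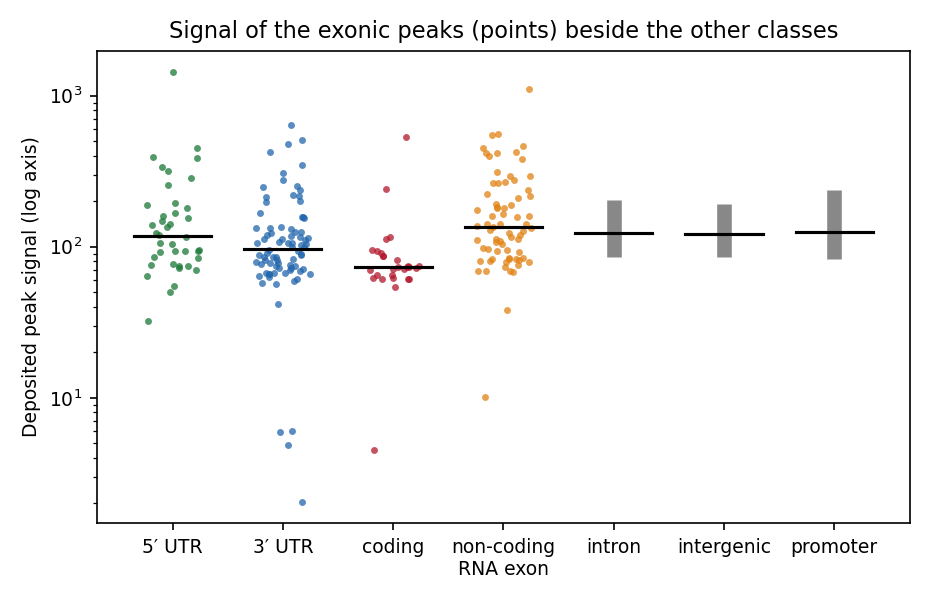
Deposited signal (y axis, log scale) of each exonic peak as a point, by kind of exon (x axis), with the median as a black line; grey bars span the quartiles of intronic, intergenic and promoter peaks. The medians fall from 135 in non-coding RNA exons to 73.0 in coding sequence, and 6 members lie near or below a signal of 10.

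The strongest of all was in a 5' UTR exon of baz, the gene of the Par-3 polarity scaffold. It lay on X at 17178517 to 17178881, with a signal of 1428 and rank 39 in the list. In the replicates' own ranked lists, each with its own scale, its signal was 967 in replicate 1 and 465 in replicate 2. It was the top exonic value in both lists. The exon is not part of every baz transcript, the nearest TSS is that of lncRNA:CR44026 at 4543 bp, and no peak lay at a baz TSS. A second 5' UTR peak of baz, at 17176582 to 17176945, had a signal of 156 and a place in replicate 1's thresholded list but not in replicate 2's.

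Other 5' UTR peaks included Fbl6 with a signal of 448 and CAP with 390. CAP encodes an adaptor of the actin cytoskeleton that binds vinculin, and its signal was 196 in replicate 1 and 199 in replicate 2. For cic, the gene of the HMG-box repressor Capicua, the conservative signal was 384, with 244 in replicate 1 and 130 in replicate 2. The weakest 5' UTR peak was that of KrT95D, at 32.1. The 5' UTR peaks were the most dependent on which transcript is considered: 27 of the 40 lay in an exon that some other transcript of the same gene reads through as an intron or skips. In 37 of the 40 the nearest TSS was the host gene's own.

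The top 3' UTR peak lay in Cals on chromosome 4, which encodes calsyntenin, a transmembrane protein of the cadherin superfamily. Its signal was 637, with 423 in replicate 1 and 218 in replicate 2, and it lay 9610 bp from a TSS. APC7, a subunit of the anaphase-promoting complex, followed with a signal of 509, or 308 in replicate 1 and 193 in replicate 2. CG7872 had 475, or 305 in replicate 1 and 167 in replicate 2. All 3 lay in both thresholded lists. At 3' UTRs the nearest TSS often belonged to a neighbour. It was another gene's in 46 of 82, with 30 of the summits on the upstream side of that neighbour's TSS. The APC7 summit, for instance, lay 569 bp from a TSS of pigs.

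Coding peaks were few and, apart from a pair, weak. The coding sequence of otp, a homeobox gene of the brain, held a peak with a signal of 531, which was 322 in replicate 1 and 211 in replicate 2. It lay 4642 bp from any TSS and 22207 bp from the next conservative peak. Pde1c, the gene of a cyclic nucleotide phosphodiesterase, had a signal of 239, with 129 in replicate 1 and 104 in replicate 2. Ubr1, a ubiquitin ligase of the N-end rule pathway, was next with 117, with 74.7 in replicate 1 and 44.5 in replicate 2. These 3 lay in both thresholded lists, but only 5 of the 28 coding peaks did, and 13 lay in neither. The weakest, CG13086 at 4.48, overlapped another conservative peak.

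Exons of lncRNAs gave 6 of the 12 strongest exonic peaks. lncRNA:CR46035 on 3R (17704260 to 17704578) had a signal of 1104 and rank 86, with 726 in replicate 1 and 391 in replicate 2. lncRNA:CR43823 on 2L followed with 556, or 349 in replicate 1 and 203 in replicate 2. The others of the 12 were a pair of peaks of lncRNA:CR43334 (546 and 448), lncRNA:CR44365 (461) and lncRNA:CR43751 (423). Of the 71 peaks in non-coding RNA exons, 63 were in replicate 1's thresholded list, 41 in replicate 2's, 35 in both and 2 in neither. The weakest was a peak of lncRNA:CR44218 at 10.1, which overlapped a stronger one of 84.1 in the same gene.

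No other gene held as many exonic peaks as lncRNA:CR43334, whose transcript contains the precursor of bantam, a microRNA that promotes growth and restrains cell death. The gene spans 3L from 628435 to 643900 on the plus strand, and RefSeq places the bantam precursor at 642208 to 642288. Its 5 exonic summits lay 1835, 5320, 6386, 8176 and 12333 bp from the start of the gene, all upstream of bantam. Their signals in that order were 110, 448, 546, 314 and 379. Replicate 1 gave them 73.8, 285, 367, 205 and 266, and replicate 2 gave 39.2, 166, 190, 112 and 117. The summits at 5320 and 6386 bp were thus the highest in both replicates and the first the lowest. The first was missing from replicate 2's thresholded list, and the other 4 were in both lists. A promoter peak with a signal of 142 lay 14252 bp from the start of the gene, past the precursor, and an intergenic peak of 485 lay past the end of the gene. Upstream of the gene's start lay a promoter peak of 33.6, at 304 bp, and an overlapping intergenic peak of 121, at 503 bp.

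**Figure D3:**
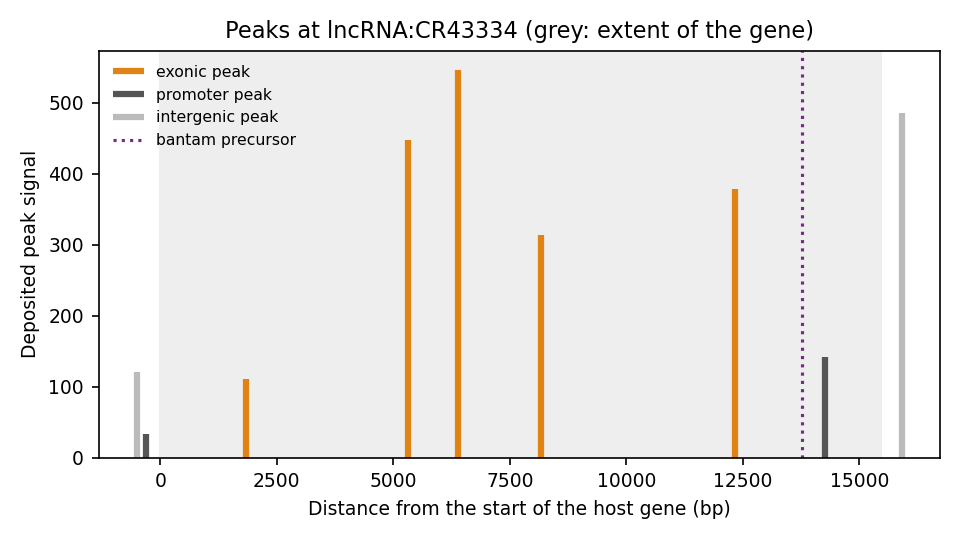
Deposited signal (y axis) of every conservative peak at lncRNA:CR43334 against distance from the start of the gene (x axis, bp); grey marks the gene and the dotted line the bantam precursor. The 5 exonic peaks, with signals of 110 to 546, all precede the precursor.

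Several other lncRNA hosts also carry a microRNA gene within them, on the same strand. lncRNA:CR46006 holds mir-276a and had 3 exonic peaks with signals of 133, 112 and 81.2, and lncRNA:CR45911 holds mir-2c, mir-13a and mir-13b-1 and had a peak of 237. The other 4 were lncRNA:CR45345 (mir-375, signal 142), lncRNA:CR43650 (mir-8, 130), lncRNA:CR43459 (mir-277 and mir-34, 110) and lncRNA:CR31044 (mir-279 and mir-996, 84.7). An exonic peak lay in 7 of the 37 non-coding RNA genes that hold a microRNA gene (18.9%, interval 9.48 to 34.2) and in 52 of the 2964 that hold none (1.75%, interval 1.34 to 2.29), with the microRNA genes themselves left out of both groups. Over all 18164 genes of any kind, 1.11% had an exonic peak. The microRNA hosts are long, with a median of 6436 bp against 601 bp. Per Mb of their exons beyond 500 bp from a TSS they had 113 peaks (exact Poisson interval 60.0 to 193), against 54.3 (41.3 to 70.3) in the others, and these intervals overlap. Of the 13 peaks behind the first value, 5 are the ones at bantam. The microRNA hosts were looked at after their peaks had been seen.

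In all, 201 genes hosted an exonic peak, 142 of them protein-coding, and 18 of the 201 hosted more than 1. Apart from the lncRNAs already named, the multiple hosts were baz, CAP, Myd88, bun, dos, drn, eas, lbk, Crag, ps, lncRNA:CR32385, lncRNA:CR43126, lncRNA:CR44603 and lncRNA:CR44831. Some had peaks at both ends. Myd88, the adaptor of Toll receptors, had 93.3 in a 5' UTR and 157 in the 3' UTR. The ethanolamine kinase gene eas had 337 in a 5' UTR and 112 in the 3' UTR. The signal of drn was 149 in a 5' UTR and 63.2 in the 3' UTR. At dos, an adaptor of receptor tyrosine kinases, both peaks were in a 5' UTR, with 159 and 72.8, and both were in both thresholded lists. At Crag (124 and 6.03) and ps (87.9 and 5.94) the second peak overlapped the first and was a small fraction of it, so each stands for a single site. The 2 peaks of lncRNA:CR44831 also overlapped, with summits 205 bp apart, as did those of lncRNA:CR44218. The count of 18 hosts includes these overlapping pairs.

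Protein-coding genes with an exonic peak also carried a promoter peak, a conservative summit within 500 bp of one of their own TSSs, more often than such genes at large. It was present in 57 of 142 protein-coding hosts (40.1%, interval 32.4 to 48.4), against 23.2% of all protein-coding genes (22.5 to 23.9). It was present in 10 of 59 non-coding RNA hosts (16.9%, interval 9.48 to 28.5), beside 326 of all 3261 non-coding RNA genes (9.01 to 11.1%). Counted by peak, 80 of the 221 exonic peaks lay in a gene with a promoter peak (36.2%, interval 30.1 to 42.7). Genes with an intronic peak had a promoter peak in 45.4% of cases (42.7 to 48.1), and the lengths of the genes were not taken into account.

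Hosts of exonic peaks were counted in gene lists for stress, cell death, development and other themes. Over all 13945 protein-coding genes 142 were hosts, or 1.02%, and gene length was not taken into account. Of 25 genes listed for the integrated stress response or as bZIP factors of any role, 16 had a promoter peak (64%). The share was 23.2% over all protein-coding genes. The list includes bZIP genes outside that response, such as kay, Jra and slbo. An exonic peak was hosted by 1 of the 25 (4%), aay, the gene of phosphoserine phosphatase in serine synthesis. Its 3' UTR peak had a signal of 72.1, with 41.5 in replicate 1 and 29.5 in replicate 2, and lay in neither thresholded list. There were 0 hosts among 21 genes of cell death and DNA damage and 17 of ecdysone and nuclear receptors. The count was also 0 for 23 genes listed for RNA binding and splicing and 156 of detoxification. The list for RNA binding and splicing also named Mhc and lola, which are not such factors. For these lists, in the order given, 52.4%, 58.8%, 60.9% and 10.9% of the genes had a promoter peak. A high share was thus not particular to the list of stress response and bZIP genes. Among 28 heat shock and chaperone genes the single host (3.57%) was Hsp22, a mitochondrial small heat shock protein, with a 5' UTR peak of 193 (137 in replicate 1 and 56.9 in replicate 2). Of 242 translation genes, HisRS (70.05) and RpL17 (2.05, the weakest member of all) were hosts (0.826%).

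Developmental genes supplied a few hosts, most of them with weak peaks. Of 74 patterning and developmental transcription factors, 3 were hosts (4.05%). These were the muscle factor Mef2 (120, 5' UTR), the neural precursor factor pros (116, 3' UTR) and the homeodomain cofactor hth (73.2, coding). Of 46 signalling genes, the 3 hosts (6.52%) were the insulin receptor InR (64.5), the Wnt receptor fz (64.2) and the Hedgehog receptor ptc (55.1). The neuronal RNA-binding protein genes elav (74.4) and Rbp9 (71.2) were the hosts among 22 neuronal genes (9.09%), both in the 3' UTR. The Polycomb group gave Su(z)2 (66.7), 1 of 22 genes (4.55%).

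The A/T content at the summit set the kinds of exonic peak apart. Within 50 bp of the summit its median was 70.3% in non-coding RNA exons, 66.3% in 3' UTRs, 58.9% in 5' UTRs and 45.5% in coding sequence. At windows centred 500 bp to either side the averages of both flanks had medians of 55.9%, 60.6%, 59.2% and 58.7%. Taken peak by peak, the difference between a summit and the average of its own flanks had a median of 15.3 points in non-coding RNA exons, 4.70 in 3' UTRs, 1.24 in 5' UTRs and -10.9 in coding sequence. The other peaks away from promoters had 68.3% at the summit and a median gain of 9.90 points.

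**Figure D4:**
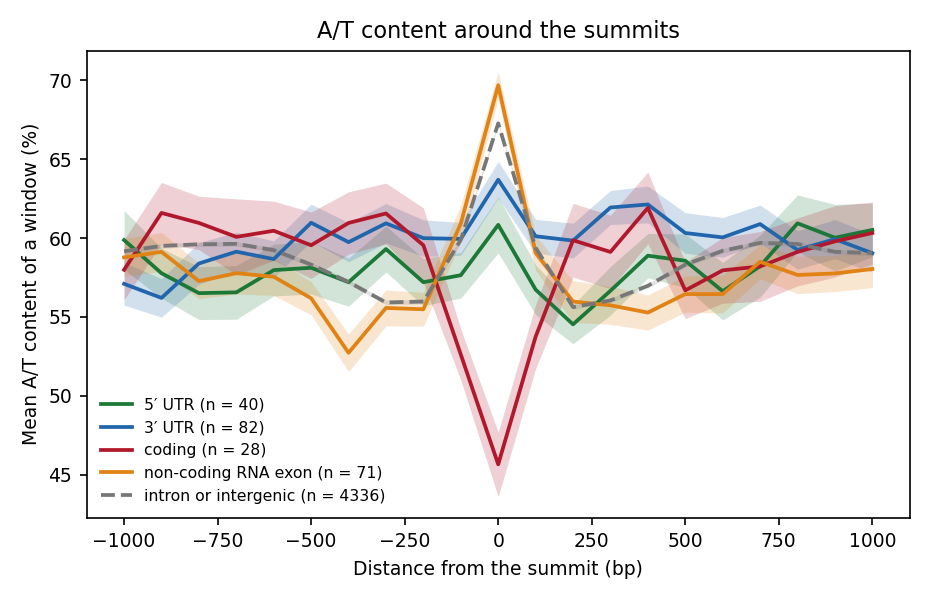
Mean A/T content of windows reaching 50 bp either side (y axis, %) against distance of the window's centre from the summit (x axis, bp), with the standard error over peaks as a band. Non-coding RNA exons peak at 69.7% and intronic and intergenic peaks (dashed) at 67.3%, whereas coding peaks dip to 45.7%.

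The sequence classes themselves differ in A/T content. All windows of the same length in coding sequence more than 500 bp from a TSS had a median A/T content of 46.5%, close to the 45.5% of the coding peaks. For 3' UTRs these windows had 64.4%, beside 66.3% at the summits, and for 5' UTRs 54.5%, beside 58.9%. Non-coding RNA exons differed more: their windows had 57.4%, beside 70.3% at the summits, and 12.9% of the windows reached that value. The corresponding share was 20.8% for intronic and 17.6% for intergenic summits.

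Counted peak by peak, the summit was richer in A/T than both flanks in 107 of 221 exonic peaks (48.4%, interval 41.9 to 55.0), and over all conservative peaks in 62.3%. The share was 63.6% among the other peaks away from promoters, a difference of -15.2 points (Newcombe 95% interval -21.8 to -8.45). Non-coding RNA exons were above those other peaks, with 54 of 71 or 76.1% (difference 12.5 points, interval 1.28 to 21.0). The 3' UTRs had 45.1% (difference -18.5, interval -28.9 to -7.62), the 5' UTRs 32.5% (-31.1, -43.6 to -15.5) and coding sequence 3 of 28 or 10.7% (-52.9, -60.0 to -36.3). In coding sequence 15 of the 28 summits were poorer in A/T than both flanks. Coding summits lay a median of 111.5 bp from the edge of their exon, so flanks 500 bp away often fell outside it. Windows of each sequence class were not scored against flanks of their own, so these differences also hold the base composition of the classes.

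With all kinds pooled, the shortfall was in the lower ranges of signal. In the top 25% of the exonic peaks by signal, above 167, 76.8% of 56 summits exceeded both flanks, beside 73.8% of the 1407 other peaks in that range of signal (difference 3.01 points, interval -9.74 to 12.4). In the 3 lower ranges, also of 25% each, the differences were -17.0, -16.8 and -18.8 points, and each interval lay below 0. By kind, at or above the exonic median of 105 the share was 9 of 22 in 5' UTRs (40.9%, interval 23.3 to 61.3), 0 of 4 in coding sequence, 23 of 38 in 3' UTRs and 39 of 47 in non-coding RNA exons. Signal and A/T content rose together across the 221 peaks pooled (Spearman rho 0.36, given as a description over sites that share libraries), as they did across the 4336 other peaks away from promoters (0.28). By kind, rho was 0.38 in 3' UTRs, 0.25 in 5' UTRs, 0.19 in non-coding RNA exons and -0.20 in coding sequence. The pooled value thus also holds the differences between the kinds. Strength and resolution went together: 176 of the 221 peaks had the same width of 364 bp with the summit at its middle, and no source used here says whether that midpoint is a true summit. In 6 of the other 45 the summit was also at the middle. These 45, with a median signal of 314, had a share of 71.1%. They differed from other peaks of such widths by -0.61 points (interval -15.3 to 10.8). Of these 45, 3 of 8 in 5' UTRs and 0 of 2 in coding sequence exceeded both flanks. The part of strength, of summit position and of sequence class in the difference was not tested.

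Words bound by C/EBP-type bZIP factors were not found at the exonic summits. None of the 221 windows of 50 bp either side held TTGCATCA, the composite site of C/EBP and ATF factors, or the C/EBP words TTGCGCAA or TTGCACAA on either strand. A count of 0 of 221 allows a share of up to 1.36%, taking 3 counts as the limit, and the Wilson upper limit is 1.71%. Over all conservative peaks 0.995% held a word, and among the other peaks away from promoters 1.25% did (difference -1.25 points, interval -1.62 to 0.49). Windows of the same length in exonic sequence held one in 0.908% of cases. With windows of 100 bp either side the difference from the other peaks was -2.28 points, and its interval of -2.77 to -0.53 no longer included 0. The flanks of the exonic peaks held 4 such words on the left and 0 on the right (summit minus flanks -0.905 points, interval -2.30 to 0.12, counting each summit against both flanks). With flanks at 1000 bp it was -2.49 points (interval -4.40 to -1.10), which excludes 0 as computed. Each summit enters both intervals once per flank, so the 442 pairs are not independent and the limits are too narrow. Whether an interval that allows for this would exclude 0 was not tested.

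A further 10 words were searched on both strands. Within 50 bp of the exonic summits 5 of them had 0 matches. These comprised the bZIP words TGACGTCA and TTACGTAA, in 0.0929% and 0.119% of all conservative peaks. They also comprised the promoter words TATCGATA and GGTCACAC, in 1.21% and 0.611% of all peaks. The AP-1 word TGACTCA, in 0.810% of all peaks, was the last of them. The E-box word CACGTG was found once, in a non-coding RNA exon, and is in 0.690% of all peaks. The early-embryo word CAGGTAG was also found once, in a 3' UTR, and is in 0.279% of all peaks. The GAGA factor word GAGAGAG was in 2 windows and is in 1.43% of all peaks. The polyadenylation hexamer AATAAA was in 31.7% of the exonic windows (interval 25.9 to 38.1), beside 22.2% of their flanks and 10.2% of all exonic windows of that length. It was as frequent among the other peaks away from promoters, at 31.4%. By kind it was in 27 of 82 windows in 3' UTRs, 24 of 71 in non-coding RNA exons, 17 of 40 in 5' UTRs and 2 of 28 in coding sequence. The word is made of A and T bases alone. Coding sequence made up 173471 of all 261732 exonic windows of that length but 28 of the 221 peaks. The 10.2% thus comes from an unlike mix of kinds. The splice donor word GTAAGT was in 7 windows, or 3.17%, beside 3.57% of all exonic windows.

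The replicates gave the exonic peaks in like order but kept them unequally. Both ranked lists covered 208 of the 221 summits, and across these the signals of the replicates had a Spearman rho of 0.74, given as a description. Thresholded lists of each replicate alone, which the choice of the exonic peaks did not use but which come from the same reads, both held 86 of them (38.9%, interval 32.7 to 45.5). Over all conservative peaks that share was 51.3%, and over the other peaks away from promoters it was 50.9% (difference -12.0 points, interval -18.3 to -5.23). Replicate 1 alone held 76 more, replicate 2 alone 15 more, and 44 were in neither list.

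**Figure D5:**
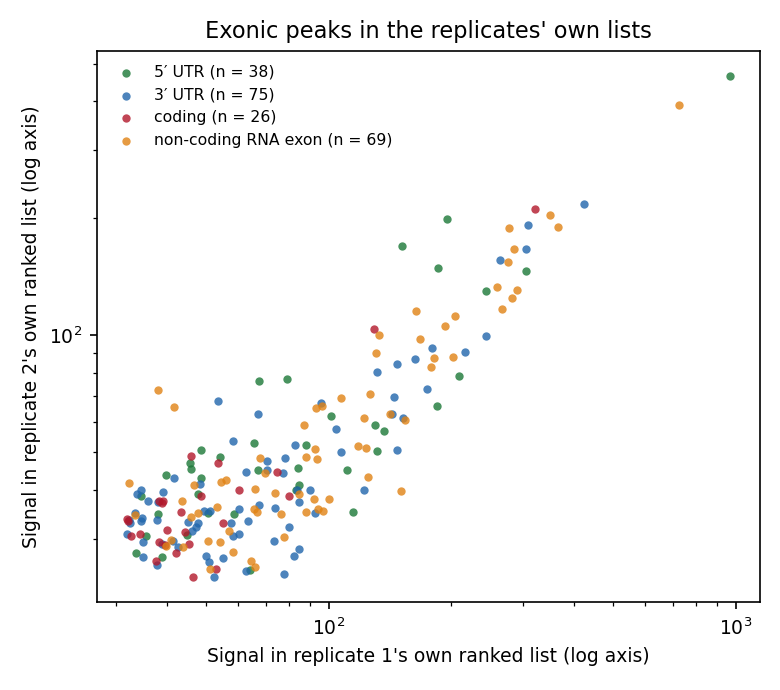
Signal of each exonic peak in replicate 2's own ranked list (y axis) against replicate 1's (x axis), both on log scales, coloured by kind of exon. baz (967 and 465) and lncRNA:CR46035 (726 and 391) lead both lists, and the coding peaks crowd at the low end.

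The gap to the other peaks lay in coding sequence and 3' UTRs. Both lists held 5 of 28 coding peaks (17.9%, difference -33.0 points, interval -43.1 to -15.2) and 26 of 82 in 3' UTRs (31.7%, difference -19.2, interval -28.3 to -8.37). They held 35 of 71 in non-coding RNA exons (49.3%, difference -1.58, interval -13.0 to 9.88) and 20 of 40 in 5' UTRs (difference -0.876, interval -15.8 to 13.999). Signal moved with this. Above a signal of 167 both lists held 96.4% of the exonic and 96.6% of the other peaks. Between 74.8 and 105 they held 1 of 55 exonic peaks against 11.3% of the others (difference -9.49 points, interval -12.1 to -1.50). In the other ranges the interval of the difference included 0.

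The exonic peaks lay nearer to a TSS than the other peaks beyond 500 bp, with a median distance of 1205 bp against 3214 bp. The distance was 775 bp in 5' UTRs, 1040 bp in non-coding RNA exons, 1078 bp in coding sequence and 1733 bp in 3' UTRs. The farthest were asRNA:CR44894 at 27819 bp (signal 76.1), lncRNA:CR44357 at 16654 bp (268) and the pros 3' UTR at 14926 bp. Just beyond the threshold lay RapGAP1 at 501 bp (signal 69.7), klar at 506 bp (70.6), lncRNA:CR46204 and lncRNA:CR44417 at 511 bp (107 and 67.6) and CAP at 518 bp (140). Just within it were lncRNA:CR44363 at 500 bp (784), then lncRNA:CR43648 (261), lncRNA:CR43928 (71.4) and lncRNA:CR44619 (1357) at 495 bp, and ERR at 492 bp (68.4). The 142 peaks that lay wholly in exonic sequence included 62 of the 82 in 3' UTRs but 8 of the 28 in coding sequence. For 75 summits some other transcript has an intron at the same base, and for 31 a gene on the opposite strand spans it, so the exon is not the sole annotation there. By arm, the exonic share ran from 2.52% of peaks on 3L to 3.74% on X, with 4 of 35 on chromosome 4 (11.4%, interval 4.54 to 26.0).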

How the data were processed

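The data are deposited ChIP-seq peak lists of Xrp1-eGFP in 2 biological replicates. Reads were aligned to dm6 and peaks called with a control, per the deposited notes. Which aligner and peak caller were run is not given in the sources used here. Signal, as deposited, is a value of the authors' peak calling with unstated scaling. The deposited IDR score and the -log10 global IDR come from the authors' irreproducible discovery rate procedure.

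The members and lists were chosen with earlier results of these data known, and A/T content and microRNA hosts were examined after the data had been seen. A summit is the peak's start plus its deposited offset. Genes and the 23581 distinct TSSs came from Ensembl release 115, leaving out annotated transposable elements. Classes were assigned in the order promoter (within 500 bp), 5' UTR, 3' UTR, coding, other exon, intron and intergenic. Peaks were shared between lists at an overlap of 1 bp. Background windows tiled the 6 arms without overlap. Intervals are 95% Wilson, Newcombe or exact Poisson, with no p-values. Named genes were the 12 strongest peaks, the 3 strongest and the weakest of each kind, the 5 nearest the threshold on each side, the 3 farthest, hosts with 2 or more and hosts in 11 gene lists. No exonic peak had a C/EBP word, so sequences were chosen by signal. The assignment of classes and the word search were tested on simulated positions and sequences. The Wilson interval and the unpaired Newcombe interval were checked against reference values. The other measures were not tested in this way. Scripts ran under Python 3.11.15 with pandas 2.3.3, NumPy 2.4.6, matplotlib 3.10.9 and SciPy 1.17.1.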

Additional observations from a re-analysis of the deposited data

How the results depend on the processing

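No paired analysis was possible because the samples form 1 group. The count of 221 exonic peaks became 135 with summits more than 1000 bp from a TSS and 121 to 213 in a single replicate's own list. The other alternatives gave 150 to 329. The share of exonic peaks with a C/EBP or C/EBP-ATF word was 0 to 0.469% in a single replicate's list and 10.9% with the half-site words TTGCNNCA and TTGCNNAA, which 12.4% of the other peaks away from promoters also held. Its difference from those peaks ran from -1.28 to -0.692 points in single lists and was -2.28 points with 100 bp either side. Summit minus flanks was -2.49 points with flanks at 1000 bp. The intervals of -2.28 and -2.49 excluded 0 as computed, unlike those of the main values. That of the flanks is too narrow, as each summit enters it once per flank. The share of exonic peaks whose host had a promoter peak was 24.4% with promoters of 250 bp and 61.5% with 1000 bp. At 1000 bp an exonic peak that near its host's own TSS counts as the promoter peak itself. Of the 221, 86 lay within 1000 bp of some TSS, so the rise to 61.5% is in part set by the definition. The share richer in A/T than both flanks was 48.8% to 52.6% in single lists, 35.3% with protein-coding exons only and 71.1% without the peaks of the most common width. Its difference from the other peaks was -16.0 to -12.4 points in single lists. It was -28.5 points with protein-coding exons only, -22.4 with flanks at 250 bp and -0.61 without the most common width. The cause of these changes was not tested. Leaving out the 14 exonic peaks that overlap another conservative peak kept the share in both replicates' lists, the A/T share and their differences within their intervals, and was not run for the words or the host promoters. The alternatives for the A/T shares, for transposable elements and for overlapping peaks were chosen after seeing the data. Without read counts, depth cannot be separated from strength.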
